A study of Bos taurus with 9 samples.

Results

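The genes described here are 61 enzymes of 6 families that oxidise, reduce or conjugate small lipophilic molecules. They are 25 cytochromes P450 (CYP), 4 UDP-glycosyltransferases (UGT), 6 cytosolic sulfotransferases (SULT) and 15 aldehyde dehydrogenases (ALDH). The others are 5 aldo-keto reductases (AKR) and 6 cytosolic or organellar glutathione transferases (GST). All 61 were chosen by a symbol rule, which was set with earlier results of these data known. The rule used the symbol alone: every probe set with exactly 1 annotated symbol that carries a prefix of these families was taken. These were 92 probe sets, and for the 18 genes that had more than 1, the brightest by its 9-array mean was used. The 61 genes are part of 9155 genes that could be named on the array.

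The arrays held RNA from tissue of bulls of Yan yellow cattle, a single breed, all aged 24 months and raised alike; the labels name no treatment. There were 3 groups of 3 arrays each: longissimus dorsi muscle, a skeletal muscle along the spine, and adipose tissue from an abdominal and from a subcutaneous depot. The labels count 9 bulls and do not tie samples to animals, so a p-value here reflects only how these samples vary among themselves. The tissues are whole pieces with many cell types, and fewer cells of a type and less RNA per cell cannot be told apart in them.

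Cytochromes P450 are haem enzymes that insert oxygen into a substrate, with electrons passed on by a reductase or by ferredoxin. Aldehyde dehydrogenases and aldo-keto reductases then oxidise or reduce the aldehydes and ketones that arise from lipids, retinoids, steroids and amino acids. Sulfotransferases, glucuronosyltransferases and glutathione transferases attach a polar group so that the product can leave the cell. Liver is best known for this chemistry, but adipose tissue stores the lipophilic substrates and carries its own set of the enzymes.

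Levels are given as log2 of the deposited intensity, and a difference of 1 is a change of 2-fold. A level of 6 served as a working mark for probe sets close to background, because between 46.1% and 49.0% of all probe sets lay above it on an array. Array medians were 0.12 higher in adipose tissue than in muscle. RNA differed in its 3' to 5' balance: the GAPDH control ratio was 0.937 to 1.01 on muscle arrays and 1.21 to 1.74 on adipose arrays, and the actin ratio was 0.963 to 1.04 and 2.24 to 8.17. The part of these differences in the results was not tested. The tissue labels were checked against marker genes. Of 14 measured muscle fibre markers, 12 were lower in adipose tissue and 2, CKM and MYH7, were higher, against the other 12; whether these 2 probe sets carry the right symbol was not tested. Of 10 adipocyte markers 9 were higher in adipose tissue.

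The families differed in how many members were bright. All 6 glutathione transferases, 4 of 5 aldo-keto reductases and 11 of 15 aldehyde dehydrogenases had a muscle mean over 6. The same held for 6 of 25 cytochromes P450 and 1 of 6 sulfotransferases. The 4 UGT genes had means between 3.22 and 5.00 in all 3 tissues. In abdominal fat 33 of the 61 members had a mean over 6, in subcutaneous fat 32 and in muscle 28. In total, 27 members had all 3 tissue means under 6, which limits what can be said of them.

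**Figure D1:**
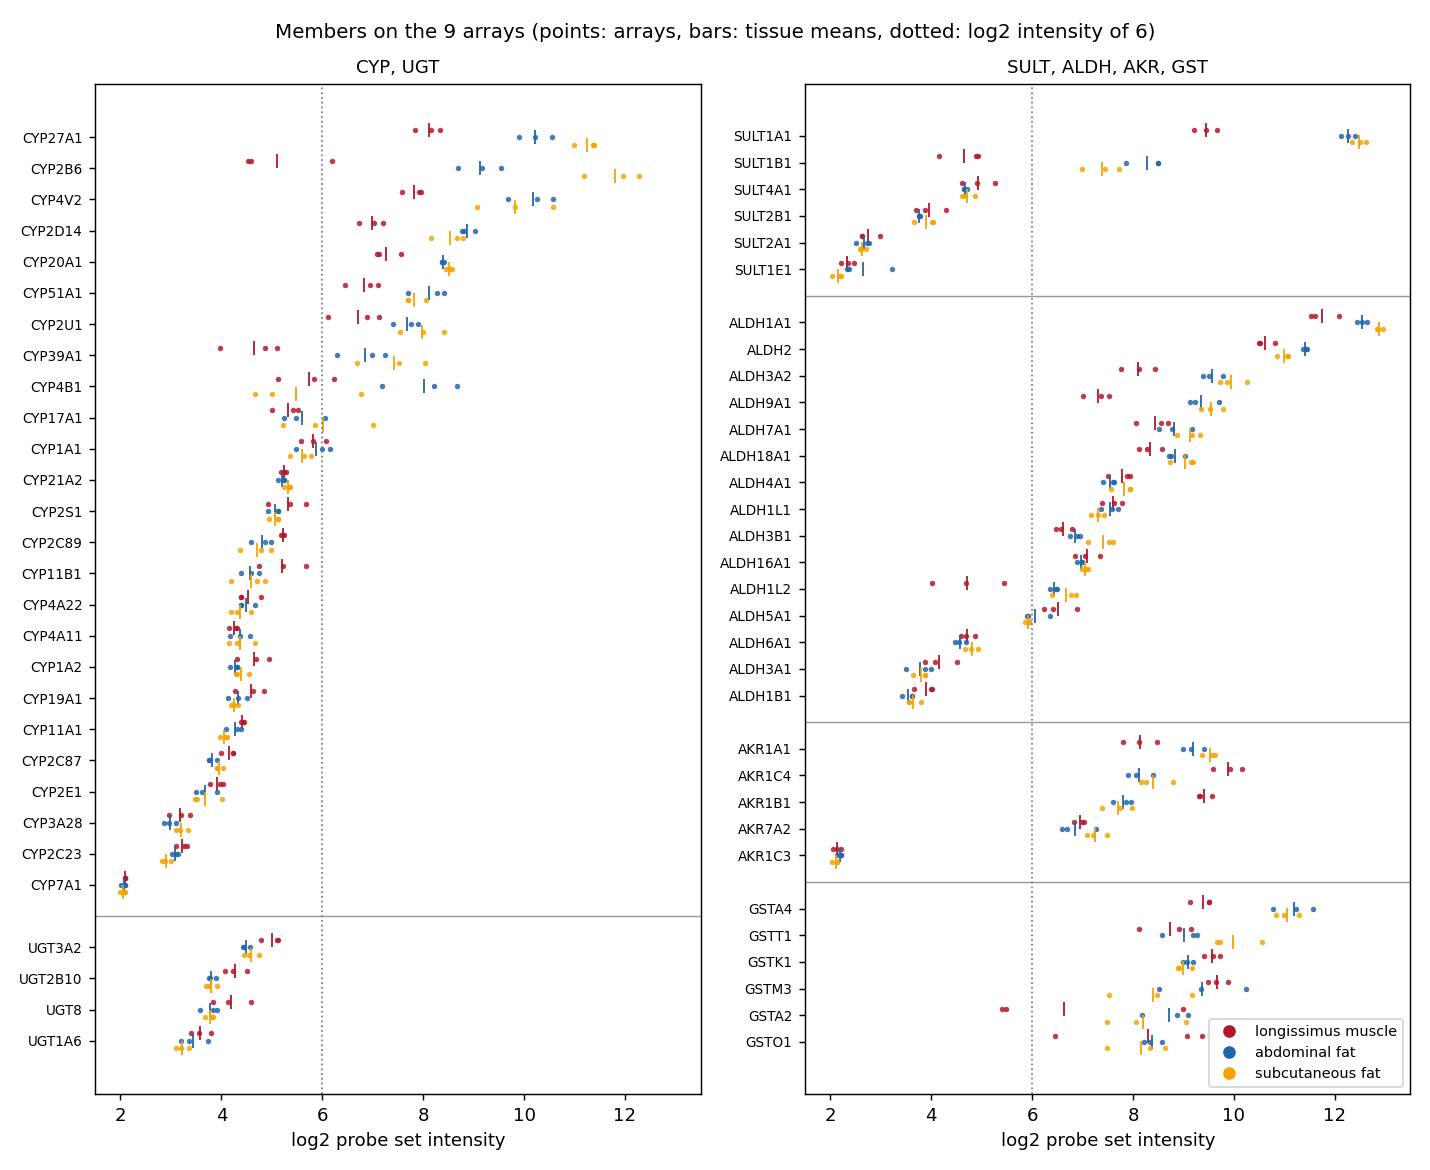
Log2 probe set intensity (horizontal axis) of the 61 members, sorted within family, with 1 point per array, a bar at each tissue mean and a dotted line at 6. Tissue means of the glutathione transferases all lie to the right of the line, and the 4 UGT genes all lie to its left. The widest separation between tissues is that of CYP2B6.

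Adipose tissue, averaged over its depots, was set against muscle first. Members were more often higher than lower in adipose tissue: 21 of 61 were higher, 8 were lower and 32 did not pass an adjusted p of 0.05 in limma. The higher members with the greatest measured differences were CYP2B6, SULT1B1, SULT1A1, CYP27A1 and CYP39A1, from 2.48 to 5.36; for CYP2B6, SULT1B1 and CYP39A1 muscle lay close to background, so these sizes have no firm order. The lower members were led by the aldo-keto reductases AKR1B1 and AKR1C4, with differences of -1.64 and -1.63. Among all probe sets 52.6% passed, and among the 9155 genes 61.4% passed, 32% higher and 29.5% lower. The share of members that passed, 47.5%, was thus no larger than the background. The share of members that were higher, 34.4%, was near that of all genes, and the share that were lower was 13.1%. Arrays of adipose tissue and muscle did not overlap for 18 higher and 6 lower members, where this held for 27.6% and 25.8% of all genes. The median difference of the members was -0.03, against -0.02 over all genes.

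This balance moved under 1 of 2 other scalings of the arrays. Higher members made up 72.4% of the calls with the deposited values and 54.3% after each array was centred on its median, when 19 members were higher and 16 lower. After quantile normalization the share was 72%, with 18 higher and 7 lower. The split of all genes under these scalings was not counted, so how far the shift is particular to the members is not known. Centring removed the higher calls of ALDH7A1 and GSTT1 and added 8 lower calls, of ALDH1B1, ALDH3A1, CYP11A1, CYP19A1, CYP1A2, CYP2C23, CYP2C87 and UGT8. The 21 higher members all had a mean of 6 or more in at least 1 tissue, which they could reach through the tissue where they are high. The 27 members with all means under 6 had 0 higher and 4 lower calls in limma, with a median difference of -0.25, and at an unadjusted p under 0.05 the counts were 0 and 10. Over all probe sets with means this low 8.63% were higher and 23.2% lower at an adjusted p under 0.05, with a median of -0.14. Their shares at the unadjusted threshold were not counted.

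**Figure D2:**
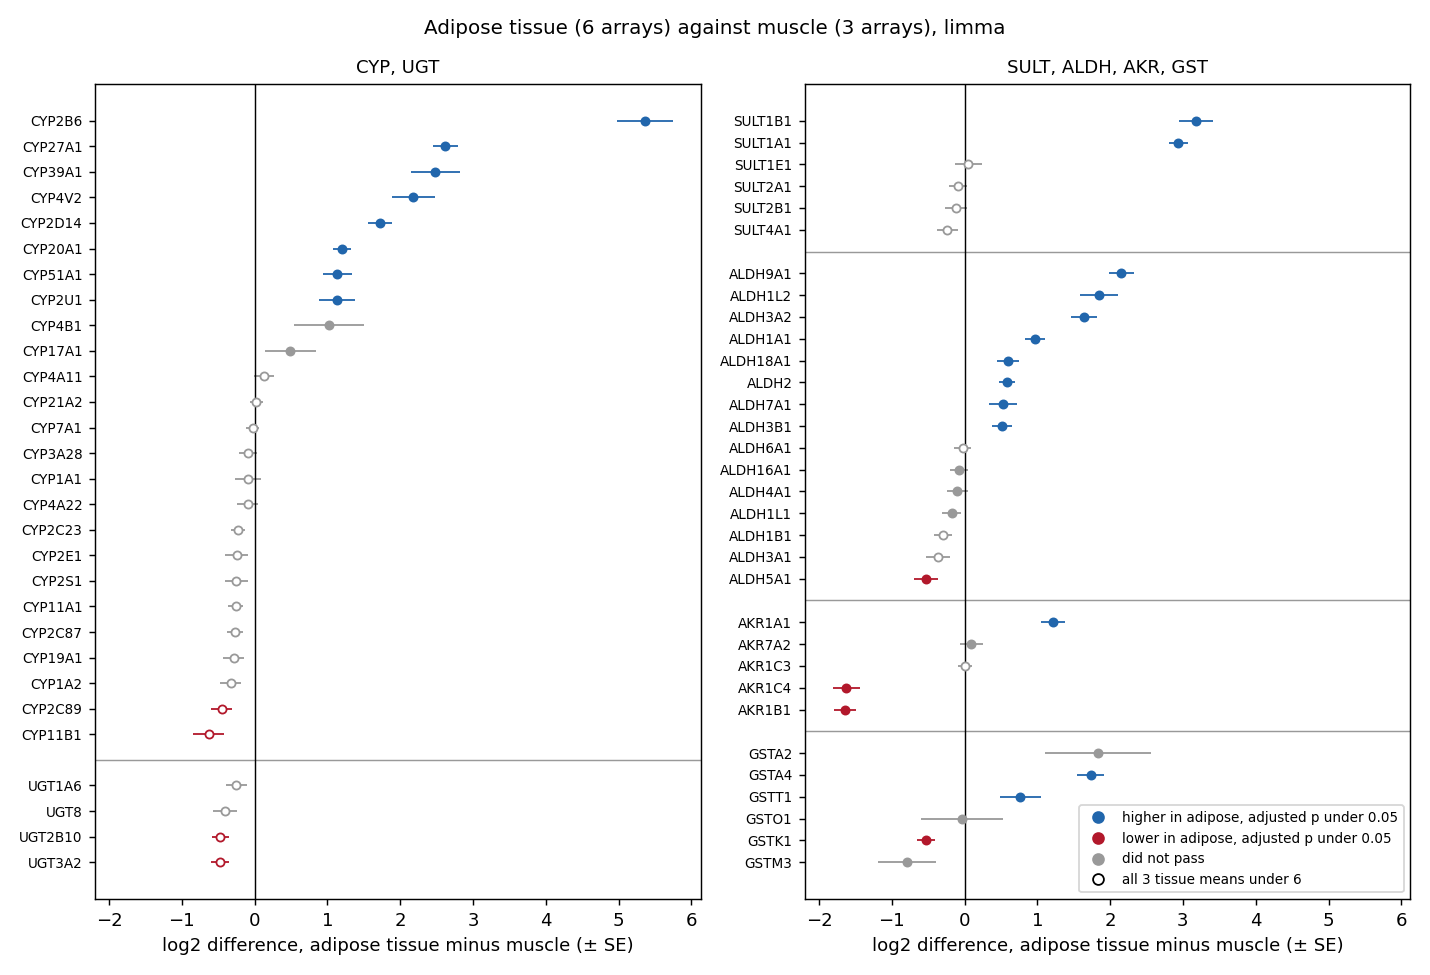
Log2 difference between adipose tissue (6 arrays) and muscle (3 arrays) for each member, with the standard error as a bar (horizontal axis), coloured by the limma call at an adjusted p of 0.05. Open points are members with all 3 tissue means under 6, and these stay within 1 of zero while the filled points run from -1.64 for AKR1B1 to 5.36 for CYP2B6.

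Among the cytochromes P450, those of sterol and bile acid metabolism were higher in adipose tissue in 3 of 4 cases. For this and the later family counts, 32% of all genes were higher in adipose tissue and 29.5% lower. Among probe sets with a tissue mean of 6 or more, the shares were 40.9% and 29%. CYP27A1, the mitochondrial sterol hydroxylase that starts the acidic route to bile acids, read 8.33, 7.84 and 8.16 in muscle, 10.21, 10.55 and 9.89 in abdominal fat and 11.36, 11.38 and 10.99 in subcutaneous fat. The 3 tissues did not overlap, and muscle was lowest. Its adipose difference of 2.62 ± 0.17 (SE, 3 muscle and 6 adipose arrays) is 6.15-fold, with an adjusted p of 1.74e-06. CYP39A1, an oxysterol hydroxylase, read 4.86, 3.98 and 5.10 in muscle, 6.98, 6.30 and 7.24 in abdominal fat and 8.04, 6.68 and 7.52 in subcutaneous fat. Every adipose array was above every muscle array, and the difference was 2.48 ± 0.34 (adjusted p 0.000184). Its muscle arrays lay under 6, close to background. CYP51A1, the lanosterol demethylase of cholesterol synthesis, was higher by 1.14 ± 0.20, from a muscle mean of 6.83 to means of 8.12 and 7.82 in the depots. CYP7A1, the rate-limiting enzyme of the classic bile acid route in liver, read 1.99 to 2.09 on all 9 arrays and did not pass.

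CYP2B6, a P450 of the drug-metabolising families, read 4.60, 4.53 and 6.20 in muscle, 8.69, 9.54 and 9.16 in abdominal fat and 11.96, 11.20 and 12.28 in subcutaneous fat. Muscle was near background on replicates 1 and 2, and the tissues stood apart without overlap. Adipose tissue was higher by 5.36 ± 0.39 (adjusted p 2.83e-06), a difference measured against a muscle level close to background, so no fold is given. CYP2D14, a bovine enzyme of the CYP2D subfamily, read 7.21, 7.02 and 6.72 in muscle, 8.82, 9.04 and 8.76 in abdominal fat and 8.67, 8.16 and 8.78 in subcutaneous fat. Its adipose arrays lay above the muscle arrays, and the difference was 1.72 ± 0.17. That probe set carries the suffix for probes shared between transcripts. The second probe set of the gene, without that suffix, gave 0.81 ± 0.11 and was also called higher. Other members of these families were CYP1A1, CYP1A2, CYP2C23, CYP2C87, CYP2C89, CYP2E1, CYP2S1 and CYP3A28, and none of these had a tissue mean of 6 or more. CYP2C89 was the 1 among them that passed, lower by 0.45 on the log2 scale, with muscle at 5.22 and the depots at 4.81 and 4.72. Its call was lost without abdominal replicate 3 (adjusted p 0.0555) and without muscle replicate 1, 2 or 3 (0.0788, 0.0579 and 0.0583).

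Of the 5 fatty acid hydroxylases, 2 were higher in adipose tissue and 3 did not pass. CYP4V2, an omega-hydroxylase of fatty acids, read 7.95, 7.57 and 7.93 in muscle, 10.25, 10.57 and 9.69 in abdominal fat and 9.83, 10.57 and 9.08 in subcutaneous fat. All adipose arrays exceeded the muscle arrays, with a difference of 2.18 ± 0.30 (adjusted p 0.000184). Its probe sets disagreed: a dimmer one gave 1.87 ± 0.36 and was called, while another, with probes shared between transcripts, gave 0.15 ± 0.13 and was not. CYP2U1, which hydroxylates long-chain fatty acids, was higher by 1.13 ± 0.25, with muscle arrays between 6.11 and 7.12 and adipose arrays between 7.40 and 8.41. CYP4B1 was high in abdominal fat and is described with the depots. CYP4A11 and CYP4A22, known from liver and kidney, stayed between 4.14 and 4.79 on all arrays and did not pass. CYP20A1, an orphan P450 with no settled substrate, was higher by 1.20 ± 0.12, and its second probe set gave 1.03 ± 0.13.

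Of the 5 steroid hormone P450s, 1 was lower in adipose tissue and 4 did not pass, and the highest tissue mean among them was that of CYP17A1 in subcutaneous fat, at 6.03. CYP11B1, which completes cortisol synthesis in the adrenal cortex, read 5.23, 5.67 and 4.74 in muscle and 4.20 to 4.86 on the 6 adipose arrays. The groups overlapped, and the difference was -0.63 ± 0.21 with an adjusted p of 0.031. The call was lost without muscle replicate 1 or 2 (0.0843 and 0.147), abdominal replicate 2 or 3 (0.05 and 0.0626) or subcutaneous replicate 1 (0.0568). CYP17A1, needed for cortisol and androgens, was over 6 on abdominal replicate 1 (6.06) and subcutaneous replicate 1 (7.01) and at 5.85 or less on the other 7 arrays. CYP11A1, which cleaves the cholesterol side chain, CYP21A2, the steroid hydroxylase of cortisol and aldosterone synthesis, and CYP19A1, the aromatase that makes oestrogens, did not pass in this comparison. Of the 4 CYP19A1 probe sets, one dimmer than that used gave -0.61 ± 0.14 and was called lower in adipose tissue. Its tissue means were all under 5, and the rest were not called. The adrenal cortex markers STAR, MC2R and HSD3B1 had means under 5 in every tissue.

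Aldehyde dehydrogenases were higher in adipose tissue in 8 of 15 cases and lower in 1, where 32% of all genes were higher and 29.5% lower. ALDH1A1, which oxidises retinal to retinoic acid, read 11.62, 11.53 and 12.09 in muscle, 12.64, 12.44 and 12.53 in abdominal fat and 12.96, 12.83 and 12.85 in subcutaneous fat. Muscle arrays were lowest without overlap, and the difference was 0.96 ± 0.14 (1.95-fold, adjusted p 0.00021). ALDH2, the mitochondrial enzyme that clears acetaldehyde, was higher by 0.59 ± 0.11, with muscle at 10.62 ± 0.17 (SD, n = 3), abdominal fat at 11.41 ± 0.03 and subcutaneous fat at 10.99 ± 0.11. The third member of this group, ALDH1B1, had all means under 4 and did not pass.

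The largest aldehyde dehydrogenase difference was that of ALDH9A1, which makes a precursor of carnitine. On the arrays it read 7.37, 7.01 and 7.52 in muscle, 9.70, 9.23 and 9.14 in abdominal fat and 9.79, 9.35 and 9.52 in subcutaneous fat. The adipose arrays were all higher, by 2.16 ± 0.17 (4.45-fold, adjusted p 5.1e-06), and the gene's second probe set gave 1.92 ± 0.20. ALDH3A2, the fatty aldehyde dehydrogenase of the endoplasmic reticulum, read 8.11, 7.77 and 8.44 in muscle, 9.78, 9.40 and 9.50 in abdominal fat and 10.25, 9.72 and 9.86 in subcutaneous fat. It too separated without overlap, with a difference of 1.64 ± 0.18 (adjusted p 3.58e-05). Of the other fatty and aromatic aldehyde enzymes, ALDH3B1 was higher by 0.52 ± 0.14 with overlapping arrays, and ALDH3A1 lay under 5 everywhere and did not pass.

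The 2 folate members behaved unequally. ALDH1L2, the mitochondrial formyl-folate dehydrogenase, read 4.68, 4.01 and 5.45 in muscle against 6.35 to 6.86 on the adipose arrays, a difference of 1.85 ± 0.26 from a muscle level near background. The cytosolic ALDH1L1 differed by -0.17 ± 0.13 (adjusted p 0.285), with tissue means of 7.60, 7.55 and 7.30. The difference between the 2 genes was not tested. Among the amino acid enzymes, ALDH18A1, which starts proline synthesis, was higher by 0.60 ± 0.15, and ALDH7A1, of lysine breakdown, by 0.53 ± 0.19. The ALDH7A1 call rested on 1 of its probe sets, since the other probe sets of the gene gave -0.08 and -0.21, and it was lost when any of 6 arrays was left out, with an adjusted p between 0.0558 and 0.173. These 6 were replicates 1 and 2 of each tissue.

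ALDH5A1, which oxidises succinic semialdehyde in the breakdown of the transmitter GABA, was the 1 member of its family that was lower in adipose tissue. It read 6.41, 6.89 and 6.24 in muscle and 5.86 to 6.35 on the adipose arrays, and the groups overlapped. The difference was -0.53 ± 0.16 (adjusted p 0.0196), and without muscle replicate 2 the adjusted p was 0.0876. ALDH4A1, of proline breakdown, ALDH6A1, of valine breakdown, and ALDH16A1, whose activity is not settled, did not pass, with differences of -0.10, -0.03 and -0.07.

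The aldo-keto reductases were divided in direction. AKR1B1, the aldose reductase of the polyol pathway, read 9.32, 9.57 and 9.30 in muscle, 7.60, 7.86 and 7.97 in abdominal fat and 7.98, 7.74 and 7.39 in subcutaneous fat. Every muscle array was above every adipose array, and adipose tissue was lower by 1.64 on the log2 scale, a 3.12-fold difference (SE 0.15, adjusted p 1.33e-05). AKR1C4, of the hydroxysteroid dehydrogenase subfamily, read 10.17, 9.92 and 9.58 in muscle, 7.90, 8.07 and 8.40 in abdominal fat and 8.25, 8.16 and 8.79 in subcutaneous fat. It was likewise lower in adipose tissue without overlap, with a difference of -1.63 ± 0.19. Another of its 6 probe sets gave -1.92 ± 0.25, and 2 with tissue means under 5 were called lower too. The other probe sets, also dim, gave -0.18 ± 0.12 and -0.09 ± 0.10 and were not called. AKR1C genes are close copies of each other, so the gene behind these signals is uncertain. AKR1C3, its neighbour in RefSeq gene order, read 2.03 to 2.22 on all arrays.

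AKR1A1, the aldehyde reductase that also acts on glucuronate, was the aldo-keto reductase with higher adipose levels. It read 8.48, 7.79 and 8.12 in muscle, 9.15, 8.99 and 9.40 in abdominal fat and 9.63, 9.36 and 9.57 in subcutaneous fat. The arrays did not overlap, and the difference was 1.22 ± 0.16 (2.33-fold, adjusted p 0.000148). AKR7A2, which reduces succinic semialdehyde and aflatoxin aldehydes, differed by 0.10 ± 0.16 and did not pass.

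Glutathione transferases had means over 6 in every tissue and split 2 higher, 1 lower and 3 not passing. GSTA4, which conjugates the aldehydes of lipid peroxidation, read 9.51, 9.12 and 9.51 in muscle, 11.56, 10.78 and 11.23 in abdominal fat, and 10.84 at the lowest and 11.29 at the highest in subcutaneous fat. Adipose arrays were all higher, by 1.74 ± 0.18 (3.33-fold, adjusted p 3.33e-05). GSTT1, of the theta class, was higher by 0.77 ± 0.28 (adjusted p 0.04) with overlapping arrays: muscle read 8.13, 9.15 and 8.91, abdominal fat 9.18, 8.58 and 9.26 and subcutaneous fat 10.56, 9.72 and 9.67. That call was lost without muscle replicate 1 or 3 (0.195 and 0.0573), abdominal replicate 1 or 3 (0.0747 and 0.0782) or subcutaneous replicate 1 (0.0675). GSTK1, the kappa class enzyme of mitochondria and peroxisomes, was lower in adipose tissue by 0.53 on the log2 scale, with muscle arrays at 9.40 to 9.72 and adipose arrays at 8.90 to 9.20. A second probe set of GSTK1 gave -1.35 ± 0.19 and was called, and the dimmest gave -0.23 ± 0.16 and was not.

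GSTA2, GSTO1 and GSTM3 varied widely between arrays of 1 tissue. GSTA2 read 5.40, 9.00 and 5.48 in muscle, an SD of 2.06, against a median SD of 0.25 over the members in muscle. Its adipose arrays lay between 7.48 and 9.08, and the difference of 1.83 ± 0.73 had an adjusted p of 0.0572. GSTO1, of the omega class, read 9.37, 9.08 and 6.45 in muscle (SD 1.61) and 7.49 to 8.63 in adipose tissue, a difference of -0.03 ± 0.56. GSTM3, of the mu class, read 9.65, 9.89 and 9.48 in muscle, 9.35, 8.51 and 10.24 in abdominal fat and 9.17, 7.52 and 8.48 in subcutaneous fat, and did not pass against adipose tissue as a whole (adjusted p 0.12).

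The 5 probe sets of GSTA2 also differed in which array was high. On the brightest probe set, muscle replicate 2 was the highest muscle array and the arrays whose titles begin with 4 were the lowest of each tissue. On 1 of the others the order was turned: the arrays numbered 4 read 6.51, 9.32 and 7.96 in muscle, abdominal and subcutaneous fat, and those numbered 5 read 4.30, 3.99 and 3.39. None of the 5 probe sets passed for adipose tissue against muscle.

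**Figure D3:**
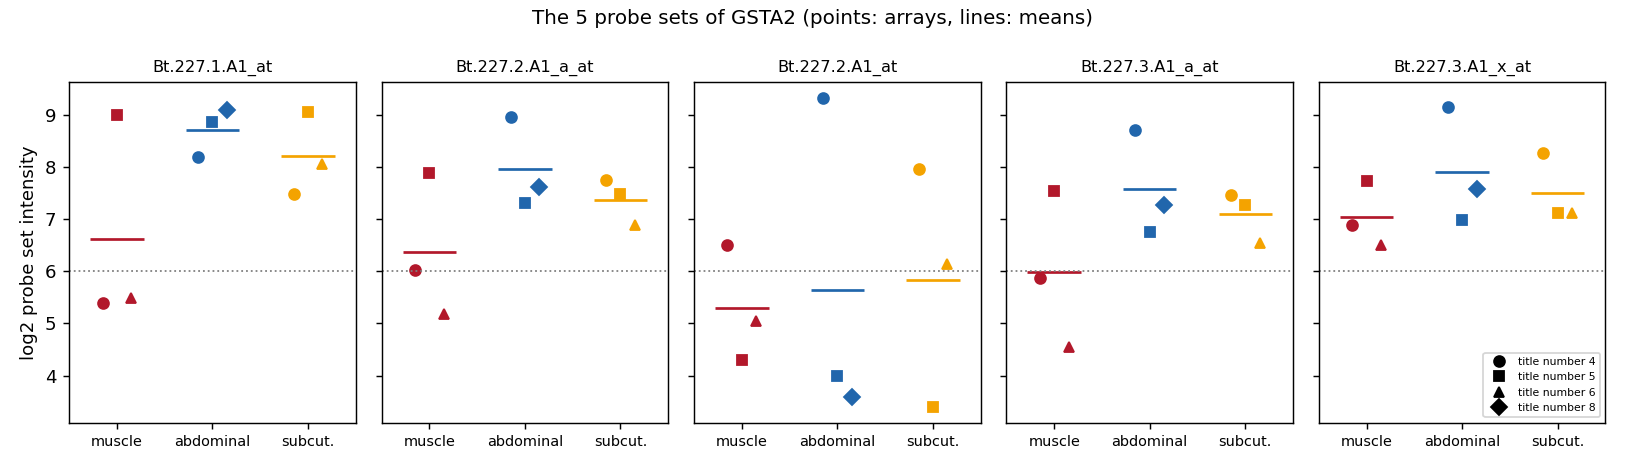
Log2 intensity (vertical axis) of the 5 GSTA2 probe sets by tissue, with 1 point per array, its shape giving the leading number of the sample title, a line at each tissue mean and a dotted line at 6. In the middle panel the arrays numbered 4 are the highest of each tissue, from 6.51 to 9.32, and in the left panel the arrays numbered 4 are the lowest.

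Of 6 sulfotransferases, 2 were higher in adipose tissue and 4 did not pass. SULT1A1, the phenol sulfotransferase, read 9.67, 9.44 and 9.21 in muscle, 12.40, 12.13 and 12.26 in abdominal fat and 12.61, 12.49 and 12.34 in subcutaneous fat. The adipose arrays were far above muscle without overlap, by 2.93 ± 0.13 (7.64-fold, adjusted p 1.33e-07). SULT1B1, which sulfates phenols and thyroid hormones, read 4.88, 4.92 and 4.16 in muscle, 8.49, 7.86 and 8.50 in abdominal fat and 7.45, 7.72 and 7.00 in subcutaneous fat. The difference was 3.18 ± 0.23 (adjusted p 3.11e-06), and since muscle lay under 6 on every array, close to background, no fold is given. SULT1E1 (oestrogens), SULT2A1 (steroid alcohols), SULT2B1 (cholesterol) and SULT4A1, a brain form with no settled substrate, lay under 6 on all arrays and did not pass.

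The 4 UGT genes were dim in all tissues. In limma 0 were higher and 2 were lower in adipose tissue, and at an unadjusted p under 0.05 the counts were 0 and 3. UGT3A2, which transfers sugars other than glucuronic acid, read 5.09, 5.13 and 4.78 in muscle and 4.42 to 4.75 in adipose tissue, a difference of -0.47 ± 0.12. UGT2B10, of the steroid-conjugating subfamily, differed by -0.47 ± 0.12 from a muscle mean of 4.27. UGT1A6, a phenol-conjugating form, and UGT8, which makes the galactolipids of myelin, did not pass. A dimmer UGT8 probe set gave -0.33 ± 0.11 and was called lower. The second UGT3A2 probe set gave 0.03 ± 0.11 and was not called. Of all probe sets with means under 6, 23.2% were lower at an adjusted p under 0.05, as given above. Their share at the unadjusted threshold was not counted.

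Leaving out each array in turn kept 24 of the 29 adipose calls under every omission, 19 of the higher and 5 of the lower. The exceptions were ALDH5A1, ALDH7A1, CYP11B1, CYP2C89 and GSTT1, with the values given above. Quantile normalization ended the calls of ALDH7A1 and GSTT1 and also those of ALDH3B1 (0.29 ± 0.15, adjusted p 0.123) and UGT2B10 (-0.33 ± 0.14, 0.068). Where a gene had several probe sets, 0 of 18 genes had probe sets called in opposite directions, and for ALDH9A1, CYP20A1 and CYP2D14 all probe sets were called the same way.

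Each depot was also set against muscle on its own; these comparisons share the muscle arrays. In abdominal fat 19 members were higher and 6 lower, where 46.6% of all probe sets and 56.1% of all genes passed, and in subcutaneous fat 21 were higher and 10 lower, where 47% and 56.2% passed. Of all genes 29% were higher and 27.1% lower in abdominal fat, and 30.4% and 25.9% in subcutaneous fat. After centring, the counts were 18 and 12 in abdominal fat and 20 and 15 in subcutaneous fat. The share of higher calls thus went from 76% to 60% and from 67.7% to 57.1%, and the shares of all genes after centring were not counted. The members called were 25 of 61 in abdominal fat, a smaller share than both backgrounds, and 31 of 61 (50.8%) in subcutaneous fat, between them. Leaving out each array in turn kept 20 of the 25 abdominal and 22 of the 31 subcutaneous calls under every omission. In abdominal fat ALDH18A1, CYP2C87, CYP2U1, GSTK1 and UGT2B10 were lost under some omission. In subcutaneous fat these were ALDH2 and ALDH7A1, called higher, and ALDH5A1, CYP11A1, CYP2C23, CYP2C89, GSTM3, UGT2B10 and UGT3A2, called lower. CYP2B6 was higher by 4.02 ± 0.45 in abdominal fat and by 6.70 ± 0.45 in subcutaneous fat. For SULT1B1 the values were 3.63 ± 0.27 and 2.73 ± 0.27, and for CYP27A1 2.11 ± 0.20 and 3.13 ± 0.20. GSTM3 was lower in subcutaneous fat by 1.28 on the log2 scale (adjusted p 0.0431), and in abdominal fat its difference was -0.31 ± 0.46. The GSTM3 call was lost without muscle replicate 1, 2 or 3 (adjusted p 0.0935, 0.113 and 0.0642), subcutaneous replicate 2 or 3 (0.15 and 0.082) or abdominal replicate 1 (0.0586), and also with array weights. GSTT1 was higher in subcutaneous fat by 1.25 ± 0.32, and its abdominal difference was 0.28 ± 0.32.

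The depots were then set against each other. Of the 61 members 2 passed, CYP2B6 and CYP27A1, both lower in abdominal than in subcutaneous fat, and 0 were higher in limma. At an unadjusted p under 0.05 the counts were 4 higher and 4 lower. The share of all genes at that unadjusted threshold was not counted. Of all probe sets 1.31% passed, and of all genes 1.5%, of which 0.808% were higher and 0.688% lower; 2 of 61 members is close to this background. Arrays of the depots did not overlap for 5 members in the higher and 6 in the lower direction, where 10.7% and 17.9% of all genes did so. CYP2B6 differed by -2.68 ± 0.45, 6.42-fold, with an adjusted p of 0.0293. CYP27A1 differed by -1.02 ± 0.20, 2.03-fold, with an adjusted p of 0.0448. Their array values, given above, did not overlap between the depots.

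Both calls lay close to the threshold. CYP2B6 did not pass when any abdominal array or subcutaneous replicate 1 or 3 was left out, with an adjusted p between 0.0681 and 0.0932. CYP27A1 did not pass without muscle replicate 1 (0.0624), without any abdominal array (0.121, 0.0624 and 0.137) or without any subcutaneous array (0.136, 0.13 and 0.0777). Whichever array was left out, the differences themselves stayed between -2.99 and -2.45 for CYP2B6 and between -1.19 and -0.86 for CYP27A1. The 9 measured macrophage markers, all higher in adipose tissue, had a summed intensity of 5762 to 11523 in abdominal and 5794 to 11765 in subcutaneous fat. Of 10 endothelial markers TEK and of 10 fibroblast markers SFRP2 passed between the depots, both higher in abdominal fat. The part of these cells in the 2 differences was not tested.

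CYP4B1, which hydroxylates medium-chain fatty acids and activates some protoxicants, had the largest difference in the other direction. It read 8.22, 7.18 and 8.67 in abdominal fat, 6.77, 4.68 and 5.00 in subcutaneous fat and 6.24, 5.13 and 5.83 in muscle. All abdominal arrays were above all others, while subcutaneous fat overlapped with muscle. Against subcutaneous fat the difference was 2.54 ± 0.55 with an adjusted p of 0.0597, which did not pass, and against muscle it was 2.29 ± 0.55 with an adjusted p of 0.00708. Without subcutaneous replicate 1, the highest of its tissue, the depot difference was 3.19 ± 0.44 and the adjusted p 0.0346. CYP4B1 did not pass when any other array was left out, with an adjusted p between 0.0625 and 0.185. Of 5 measured mesothelial markers, MSLN, UPK3B and KRT19 were higher in abdominal fat than in muscle. In subcutaneous fat against muscle 1 of the 5 was higher and 1 lower. Between the depots MSLN differed by 1.64 ± 0.46 and UPK3B by 1.06 ± 0.37, with adjusted p of 0.122 and 0.204. None of the 5 markers passed between the depots, and their median difference was 0.50. The list's summed intensity was 152 to 583 in abdominal fat, 164 to 220 in subcutaneous fat and 146 to 162 in muscle, and their part in the result was not tested.

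The members with the next smallest p between the depots did not pass either. SULT1B1 differed by 0.90 ± 0.27 (adjusted p 0.147), and its abdominal arrays were all above its subcutaneous arrays. ALDH3B1, an enzyme of lipid-derived aldehydes at membranes, differed by -0.55 ± 0.16 (adjusted p 0.134), with abdominal arrays at 6.74 to 6.94 and subcutaneous arrays at 7.10 to 7.60. In muscle ALDH3B1 read 6.58, 6.80 and 6.47, and abdominal fat overlapped with it.

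**Figure D4:**
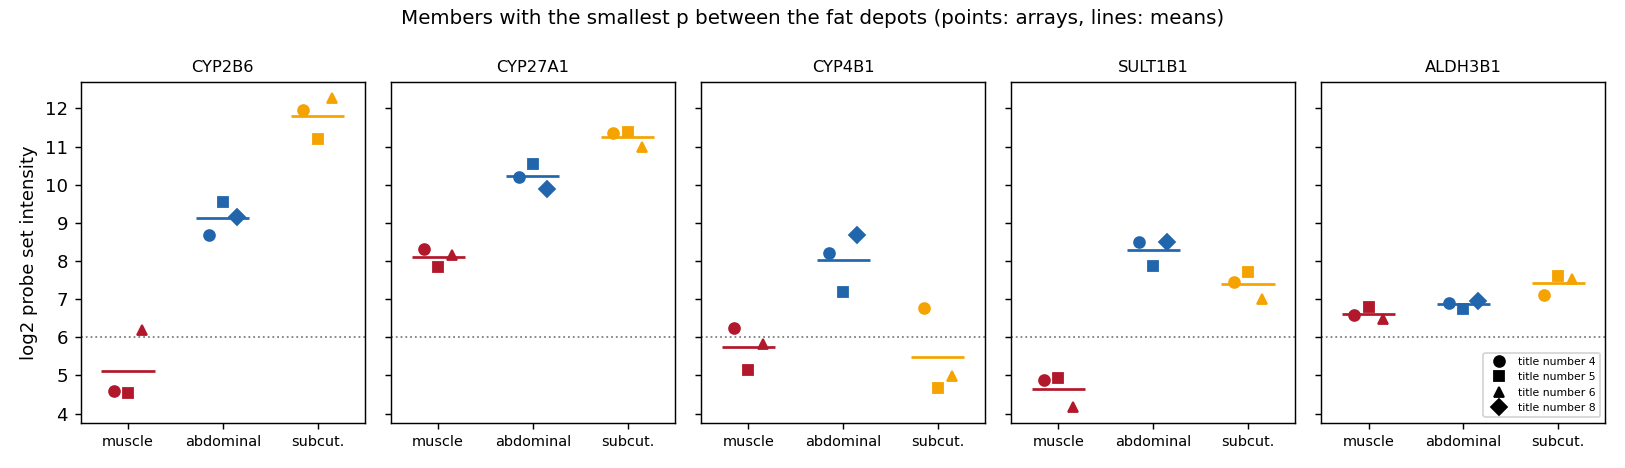
Log2 intensity (vertical axis) of the 5 members with the smallest p between the depots, by tissue, with 1 point per array, its shape giving the leading number of the sample title, a line at each tissue mean and a dotted line at 6. CYP2B6 and CYP27A1 are highest in subcutaneous fat, and CYP4B1 and SULT1B1 are highest in abdominal fat.

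Members that lie side by side in RefSeq gene order (ARS-UCD2.0, used for order only) were alike in some pairs and unlike in others, with no test made. CYP1A1 and CYP1A2 are adjacent and CYP4A11 and CYP4A22 have 1 gene between them. None of these passed in any comparison on the brightest probe set. CYP2C87 and CYP2C89, with 2 genes between them, had adipose differences of -0.27 ± 0.10 and -0.45 ± 0.15. CYP2B6 and CYP2S1 are adjacent, and CYP2S1 read 4.92 to 5.67 on all arrays while CYP2B6 ran from 4.53 to 12.28. CYP4A22 and CYP4B1 are adjacent, and of these CYP4B1 alone exceeded 6 on any array. SULT1B1 and SULT1E1 have 1 gene between them, and SULT1E1 read 2.03 to 3.22. ALDH3A1 and ALDH3A2, with 1 gene between them, had adipose differences of -0.37 ± 0.17 and 1.64 ± 0.18. GSTA2 and GSTA4, with 3 genes between them, both read over 7 on every adipose array.

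The genes that serve these enzymes were mixed in direction. Of 13 measured partners of cytochromes P450, 6 were higher and 4 lower in adipose tissue. POR, the reductase that feeds electrons to the microsomal forms, was higher by 0.65 ± 0.13, and CYB5A, cytochrome b5, by 2.71 ± 0.23. The reductase CYB5R1 was lower by 2.98 on the log2 scale, with muscle at 11.99 and the depots at 8.88 and 9.16. ALAS1, which starts haem synthesis, was lower by 1.92. Of 23 receptors and sensors that regulate such genes, 9 were higher and 7 lower. PPARG, the adipocyte nuclear receptor, was higher by 4.24 ± 0.20, CEBPA, an adipocyte transcription factor, by 1.45 ± 0.22, and PPARA, the receptor of fatty acid oxidation, was lower by 1.71. NFE2L2, a transcription factor of the oxidant response, differed by -0.07 ± 0.14. AHR, the receptor for aromatic compounds, read 3.27 to 3.85 on all arrays.

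Other oxidoreductases and hydrolases of the first phase were higher in adipose tissue in 15 of 28 cases and lower in 3, with a median difference of 0.50. Of all genes 32% were higher and 29.5% lower. The epoxide hydrolases EPHX1 and EPHX2 were higher by 2.90 ± 0.25 and 2.71 ± 0.23, and the monoamine oxidase MAOB by 2.51 ± 0.26. Among other transferases and cofactor genes 7 of 17 were higher and 4 lower. MGST1, the microsomal glutathione transferase, was higher by 3.09 ± 0.09, the prostaglandin synthase PTGES by 1.89 ± 0.19, and PAPSS1, which makes the sulfate donor of the sulfotransferases, by 1.65 ± 0.21. In the retinoid list around ALDH1A1, 8 of 13 were higher and 3 lower, led by RBP4, the retinol carrier, at 4.12 ± 0.29, with RARRES2 at 1.88 ± 0.18 and RARRES1 at 1.83 ± 0.36. The steroid and sterol list held 6 higher and 2 lower of 14: SQLE of cholesterol synthesis was higher by 1.78 ± 0.26, HSD17B4 of peroxisomal oxidation by 1.68 ± 0.13, and HSD17B8 was lower by 1.70.

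Peroxidases, peroxiredoxins and related genes were divided, 6 higher and 7 lower of 20. GPX3, the secreted glutathione peroxidase, was higher by 1.95 ± 0.26, the extracellular superoxide dismutase SOD3 by 1.71 ± 0.12, and GPX7 of the endoplasmic reticulum by 1.58 ± 0.20. Of 9 carriers 2 were higher and 2 lower: SLCO2B1 was higher by 1.53 ± 0.18 and the efflux pump ABCG2 rose from a muscle mean of 7.73 to 9.01 and 9.45 in the depots, while the carnitine carrier SLC22A5 was lower by 1.99. Against 61.4% of all genes called, 32% higher and 29.5% lower, these lists had 4 of 9 to 11 of 13 members called.

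Markers of other cells were read in the same tissues, since liver and other cell types carry many of these enzymes. Hepatocyte markers were higher in 5 and lower in 4 of 16: ALB had means over 9 in all tissues, while APOH, APOC3, F2, CPS1 and TAT were under 6 in all tissues. The summed hepatocyte list was 1320 to 1457 in muscle and 3377 to 6193 in the depots. Endothelial markers were higher in adipose tissue in 9 of 10 cases, macrophage markers in 9 of 9 and fibroblast markers in 8 of 10, against 32% of all genes. Their summed intensities did not overlap between adipose tissue and muscle, for endothelium 1465 to 1694 against 5726 to 8566. The part of these cells in the adipose differences was not tested.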

How the data were processed

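Per the submitters' processing notes, the authors processed the arrays with RMA, version and options not stated. What the authors deposited is a table of linear intensity, 1 value per probe set and array; log2 was taken here. No further normalization or filter was applied. Of 24128 probe sets, 112 controls were dropped, which leaves 24016. Names came from the array annotation and the RefSeq table: 60 of 61 members matched by gene identifier, and 2 probe sets with several symbols were left out.

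limma 3.58.1 (R 4.3.3) fitted 1 mean per tissue over the 9 arrays; 6 residual degrees of freedom remain. Tests were two-sided with Benjamini-Hochberg adjustment over the 24016 probe sets. Tables were made with pandas 2.3.3 under Python 3.11.15 (numpy 2.4.6), plots with matplotlib 3.10.9. The procedure was tested on simulated data. Precision is limited by the number of arrays.

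The members, gene lists and tests were chosen with earlier results of these data known. Genes named were, per family, up to 4 passing members with the largest positive and 3 with the largest negative difference, the brightest 2 per tissue, the depot calls and the 5 smallest depot p-values, and up to 3 passing genes per list. Any other member named was picked with its values in view. Alternatives tried were the prior variance, array weights, dim filters, scaling, probe set choice, symbols, threshold, arrays in the fit, a title-number block and leaving out each array.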

Additional observations from a re-analysis of the deposited data

Results flagged for a closer look

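Between the depots, abdominal minus subcutaneous on the log2 scale, 2 members and 4 genes of the related lists passed an adjusted p of 0.05 in limma. Of all probe sets 1.31% passed, and of all genes 1.5%. The list genes were 2 of 28 other oxidoreductases and hydrolases, 1 of 13 in the retinoid list and 1 of 14 in the steroid and sterol list. Their calls were not followed with arrays left out. CYP2B6 differed by -2.68 and CYP27A1 by -1.02, both higher in subcutaneous fat. Both of these calls were lost when some arrays were left out, as given above. ADH6, an alcohol dehydrogenase, differed by 2.01 (adjusted p 0.0195): its abdominal arrays read 6.49, 5.49 and 6.48, its subcutaneous arrays lay at 3.97 to 4.24 and its muscle arrays at 4.05 to 4.81. XDH, the xanthine oxidoreductase of purine breakdown, differed by 1.20 (adjusted p 0.041), with abdominal arrays at 11.38 to 11.81 and subcutaneous arrays at 9.96 to 10.57. CRABP2, the carrier that hands retinoic acid to its receptor, differed by -1.30 (adjusted p 0.0354), and all its arrays lay under 6. HSD11B1, which regenerates cortisol, differed by -1.05 (adjusted p 0.0498), with abdominal arrays at 4.97 to 5.22 and subcutaneous arrays at 5.81 to 6.58. For each of the 6 genes the depots stood apart on every array.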

How the results depend on the processing

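Counts of members called kept within 1.5 times of the stated value in all alternatives for adipose tissue against muscle (23 to 37, stated 29) and for each depot against muscle (19 to 33, stated 25, and 22 to 38, stated 31). Between the depots the count of 2 became 1 with only the arrays compared, 1 with the replicate block on the title number, and 0 at an adjusted p under 0.01; leaving out 1 array gave 0 to 2. Among named results that passed in the stated fit or in the alternative, none turned its direction. Changes of sign where neither passed were not counted. Same-numbered arrays all correlated positively in their deviations from the group means, between 0.0431 and 0.362, and not every pair exceeded 0.1. Between the depots the pairs numbered 4 and 5 correlated at 0.33 and 0.362. The crossed pairs, 4 with 5 and 5 with 4, correlated at -0.285 and -0.324. The labels do not say what the number stands for, so no pairing was assumed. Not every array correlated best with its own number: subcutaneous replicate 1 correlated 0.0431 with the muscle array of its number and 0.0789 with muscle replicate 3. Under the block CYP2B6 (-2.31, adjusted p 0.0538) and CYP27A1 (-0.91, 0.152) lost the depot call and CYP4B1 (2.12, 0.0497) gained it; against muscle 30 members were called, without CYP2C89 and GSTT1 and with CYP4B1, GSTA2 and GSTM3. CYP4B1 also passed with array weights (0.0237) and with either dim filter (0.0479 and 0.0484), and the cause was not tested. The restriction to members with a tissue mean of 6 or more was chosen after seeing the data. Probe sets near background limit the dim members.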

Other observations

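Some members followed the leading number of the sample title across tissues. The array numbered 5 was the lowest of its tissue in all 3 tissues for 6 of 61 members (9.84%), AKR1A1, ALDH1A1, ALDH3A2, CYP2U1, CYP39A1 and CYP4B1; over all genes the share was 4.81%. The same array was the highest in all 3 tissues for CYP2E1 and SULT2A1 (3.28% of members, 8.26% of all genes). The array numbered 4 was the highest in all 3 tissues for CYP17A1, CYP2C89 and SULT1A1 (4.92%, 3.03% of all genes) and the lowest for GSTA2 (1.64%, 5.04% of all genes). The labels do not say what the number stands for. Abdominal replicate 3, whose title has another form, had a BioB control spike of 7.45, against 5.85 to 6.83 on the other 8 arrays.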
